A study of Gallus gallus with 6 samples.

Results

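Heat shock proteins and chaperones are the proteins that help others to fold, keep damaged proteins from clumping and hand those beyond repair to degradation. The genes taken here were those whose symbol starts with HSPA, HSPB, HSPD, HSPE, HSPH, HSP90, DNAJA, DNAJB or DNAJC, with HSF, BAG or CCT and a digit, or is TCP1. These were 82 of the 13009 genes with a symbol of their own on the array, and each was represented by its brightest probe set, a group of short probes for 1 transcript. Of the 46 with several probe sets, 20 had probe sets both above and below untreated chicks at 48 hrs after gentamicin and 18 at 72 hrs. The 82 genes fell into 7 small heat shock, 10 HSP70, 3 HSP90 and 40 DNAJ proteins. There were also 10 chaperonins, 4 heat shock factors (HSF) and 5 BAG proteins. The 3 others (HSPB11, HSPBAP1 and HSF2BP) fit the symbol rule but were placed in none of these groups.

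RNA was taken from the basal part of the basilar papilla (BP), the hearing epithelium of birds, in wild type chicks aged 12 to 16 days. The treated groups, 48 hrs and 72 hrs after an injection of gentamicin, were set against age-matched untreated chicks, which count as 0 hr, and each of the 3 groups had 2 arrays, called biological replicates in the titles. Gentamicin is an aminoglycoside antibiotic that kills the hair cells (HCs), the sensory cells of the BP, and supporting cells (SCs) then replace them. Several papillae of a time point were pooled before RNA extraction, so the errors are those between pools, and, because whole tissue was used, fewer cells of a type and less RNA per cell cannot be told apart.

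In a stressed cell, heat shock factors bind the promoters of heat shock genes, and small heat shock proteins, HSP70 and HSP90 are made in larger amounts. Small heat shock proteins hold unfolding proteins without using ATP. DNAJ proteins bring clients to HSP70 and start its ATP cycle, BAG proteins and the HSP110 branch release the clients, HSP90 finishes kinases and steroid receptors, and the ring-shaped chaperonins enclose actin and tubulin in the cytosol and imported proteins in the mitochondrion. Sister machines in the endoplasmic reticulum (ER) fold secreted and membrane proteins. In the inner ear, heat shock proteins are best known for protecting HCs against aminoglycosides in mammals.

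The arrays carried markers of both cell types of the BP. The 16 HC genes measured summed to 17730 and 18750 in intensity at 0 hr, 15480 and 17610 at 48 hrs, 16430 and 20370 at 72 hrs. Such a sum weighs the brightest gene most, here CALB1 at a mean log2 intensity of 13.19. The 13 SC genes summed to 34240 to 37210 on the 6 arrays. ATOH1, the transcription factor that starts HC formation, and LHX3 were the only HC markers dimmer than the array median. The replicate 2 array at 72 hrs stood apart on the first principal component, at -41.4 against -9.63 to 19.5 on the other arrays, and had the largest gap between 3′ and 5′ probes, a measure of RNA and labelling quality, for EF1A (3.94 on the log2 scale against 1.59 to 3.01) and ACTB (5.03 against 3.51 to 3.97). For GAPDH the largest gap, 4.91, was on the replicate 2 array at 48 hrs, against 4.56 on the replicate 2 array at 72 hrs and 2.08 to 3.31 on the others. Only hens carry W-linked genes. The summed intensity of 4 of them was 4091 and 3571 at 0 hr, 2404 and 4765 at 48 hrs, and 28.8 and 40.9 at 72 hrs. Sex and time thus cannot be told apart at 72 hrs, against untreated chicks or 48 hrs, for genes on any chromosome. Connective tissue genes summed to 3108 on the untreated replicate 1 array and to 538 to 881 on the others.

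HSPB9 was the chaperone gene with the largest difference from untreated chicks at 48 hrs. At 72 hrs it was largest by a narrow margin over the dim DNAJB2, at 1.29 against -1.27 on the log2 scale. HSPB9 codes for the avian small heat shock protein HSP25, its synonym in RefSeq. Its intensity was 158 and 249 at 0 hr, 2436 and 1601 at 48 hrs, 976 and 240.3 at 72 hrs. Both 48 hr arrays lay above all 4 others, while at 72 hrs replicate 1 lay between the untreated and the 48 hr levels and replicate 2 within the untreated range. At 48 hrs the log2 fold change was 3.31 ± 0.59 (SE), or 9.95-fold, with an adjusted p of 1 by limma with Benjamini-Hochberg adjustment over 38382 probe sets. The SE here and below is the moderated one of limma. It draws a gene's own spread between the 2 arrays of a group, taken over the 3 groups, toward the spread of probe sets of like intensity. The latter has more weight (4.75 prior against 3 residual degrees of freedom). The adjusted p ranged from 0.202 to 1 over the alternative settings and the log2 fold change at 48 hrs from 2.99 to 3.64 with each array left out in turn.

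The other probe set of HSPB9 had the same course. Its log2 intensity was 5.69 and 6.15 at 0 hr, 9.59 and 8.91 at 48 hrs, 8.09 and 5.82 at 72 hrs. Here too the 48 hr arrays were the highest, and the replicate 2 array at 72 hrs was back between the untreated values. The log2 fold change at 48 hrs was 3.33 ± 0.65 (SE, adjusted p = 1). HSPB9 lies on chromosome 27 of the assembly GRCg7b, not on a sex chromosome, but sex and time cannot be told apart for it at 72 hrs either.

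At 72 hrs the value of HSPB9 rested on single arrays. The log2 fold change against untreated chicks was 1.29 ± 0.59 (SE, adjusted p = 0.996). It was 0.28 without the replicate 1 array at 72 hrs and 2.30 without the replicate 2 array. Between the 2 treated times HSPB9 differed by -2.03 ± 0.59 (72 minus 48 hrs, adjusted p = 1). Whether the higher 3′ to 5′ gap of the replicate 2 array at 72 hrs had a part in its low HSPB9 value was not tested.

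**Figure D1:**
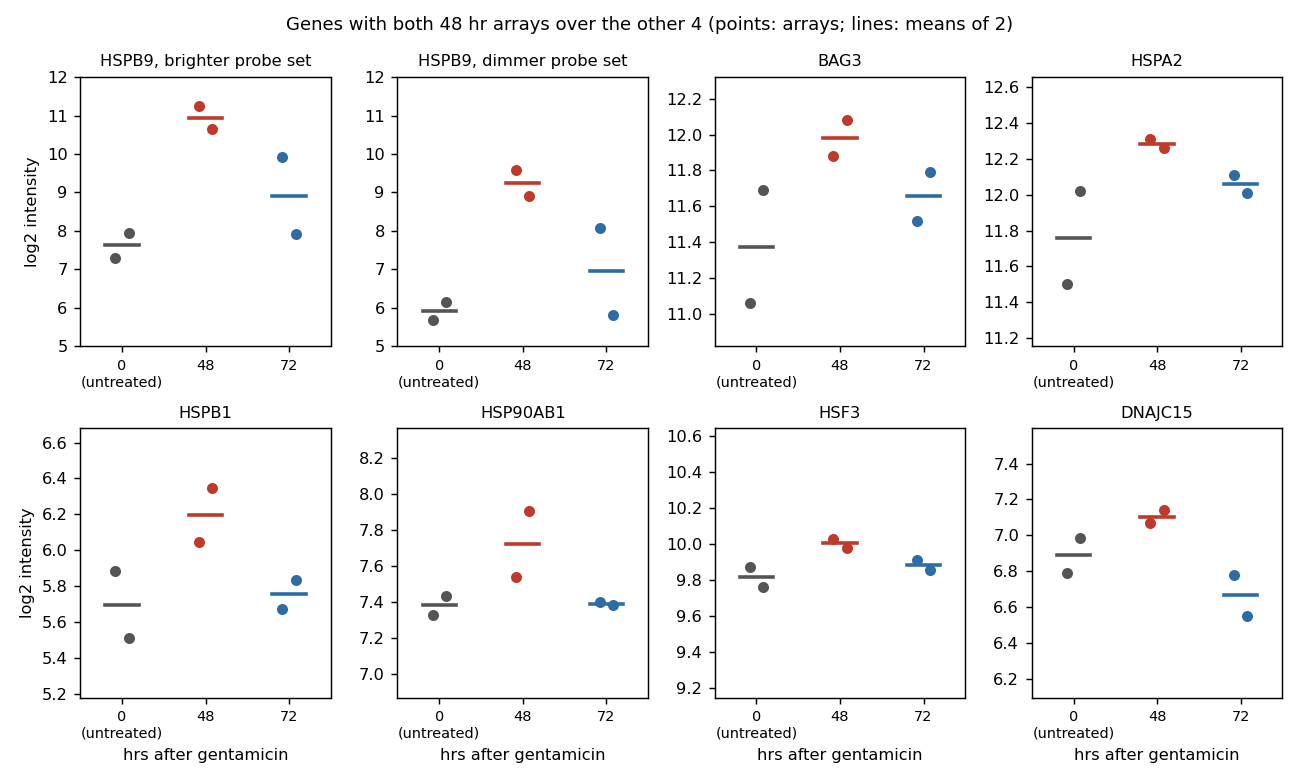
Log2 intensity of HSPB9 (both probe sets, axis from 5 to 12) and of the 6 other genes whose 48 hr arrays both lay above all other arrays (each axis spans 1.5 units), by hrs after gentamicin. Points are arrays and lines are means of the 2 arrays of a group, and HSPB9 stands 3.31 above untreated chicks at 48 hrs while the 6 others stand 0.61 or less above them.

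Across all members no difference passed limma. At an adjusted p of 0.05 the count was 0 of 82 at 48 hrs, where it was 0% of all 38382 probe sets, 0 at 72 hrs, where it was 0.0886%, and 0 at 72 against 48 hrs, where it was 0.0495%. Counted by brightest probe set, as the members were, 0, 24 and 13 of all 13009 genes passed. The adjusted p was 1 for every member at 48 hrs and at 72 against 48 hrs and 0.996 to 1 at 72 hrs. Without adjustment, p was under 0.05 for 3 members at 48 hrs (HSPB9, HSPA2 and BAG3, all higher), 2 at 72 hrs (CCT3 and DNAJB8, both higher) and 1 at 72 against 48 hrs (HSPB9, lower). Among all 13009 genes these counts were 318, 486 and 419.

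The study's own rule, a log2 fold change over 0.6 or under -0.6 with no test, took in few members. At 48 hrs 5 members were higher (HSPB9, BAG3, HSPB3, HSPB8 and HSPA13), or 6.10%, against 6.82% of all genes, and 2 were lower (HSPB7 and DNAJB2), against 5.29%. Of the 72 members brighter than the array median, HSPB9 and BAG3 were higher and none was lower, against 2.48% and 2.08% of all bright genes. At 72 hrs 6 were higher (HSPB9, HSPB3, HSPB8, CCT3, DNAJB8 and DNAJC6) and 3 lower (DNAJB11, DNAJB5 and DNAJB2), against 9.28% and 6.26% of all genes. Of the bright ones 3 were higher and 2 lower at 72 hrs, against 5.12% and 3.51%. At 72 against 48 hrs HSPB7 was higher, against 7.74% of all genes, and HSPB9 and HSPB8 were lower, against 6.94%. These shares are close to or under those of all genes, and the counts moved by more than 1.5 times with single arrays: without the replicate 1 array at 48 hrs 8 members were higher at 48 hrs, and without the replicate 1 array at 72 hrs 11 were higher and 6 lower at 72 hrs. Without untreated replicate 2, 12 members were higher at 72 hrs. Without untreated replicate 1 and without untreated replicate 2, 6 and 4 were lower at 48 hrs, and without 48 hr replicates 1 and 2, 5 and 4.

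A count of separated arrays uses no fold threshold. Both 48 hr arrays lay above both untreated arrays for 20 of the 72 bright members (27.8%), against 15% of all bright genes, and below them for 9 (12.5%), against 13.5%. At 72 hrs the counts were 11 above (15.3%), against 14.4%, and 9 below (12.5%), against 12.9%. Both times share the untreated arrays. The share above at 48 hrs was thus higher than that of all bright genes, and the others were close to it. At 72 hrs, with replicate 2 left out, 26 members were above (36.1%, all bright genes 32.6%) and 14 below (19.4%, all bright genes 28.3%).

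The 20 members above at 48 hrs came from every group except the 3 others. They were HSPB1 and HSPB9, HSPA2 and HSPH1, HSP90AA1 and HSP90AB1, the DNAJ genes DNAJA1, DNAJB12, DNAJB8, DNAJC15, DNAJC19 and DNAJC7, the chaperonins CCT3, CCT7, HSPD1, HSPE1 and TCP1, the factors HSF2 and HSF3, and BAG3. For 7 of them (HSPB1, HSPB9, HSPA2, HSP90AB1, DNAJC15, HSF3 and BAG3) the 48 hr arrays also lay above both 72 hr arrays, which is 9.72% of the bright members, against 5.12% of all bright genes. The opposite course, with both 48 hr arrays below all 4 others, was that of DNAJC11, DNAJC13 and DNAJC27 (4.17%, against 4.33%). Without the replicate 2 array at 72 hrs, 11 members were above the other 3 arrays at 48 hrs (15.3%, against 9.03% of all bright genes).

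**Figure D2:**
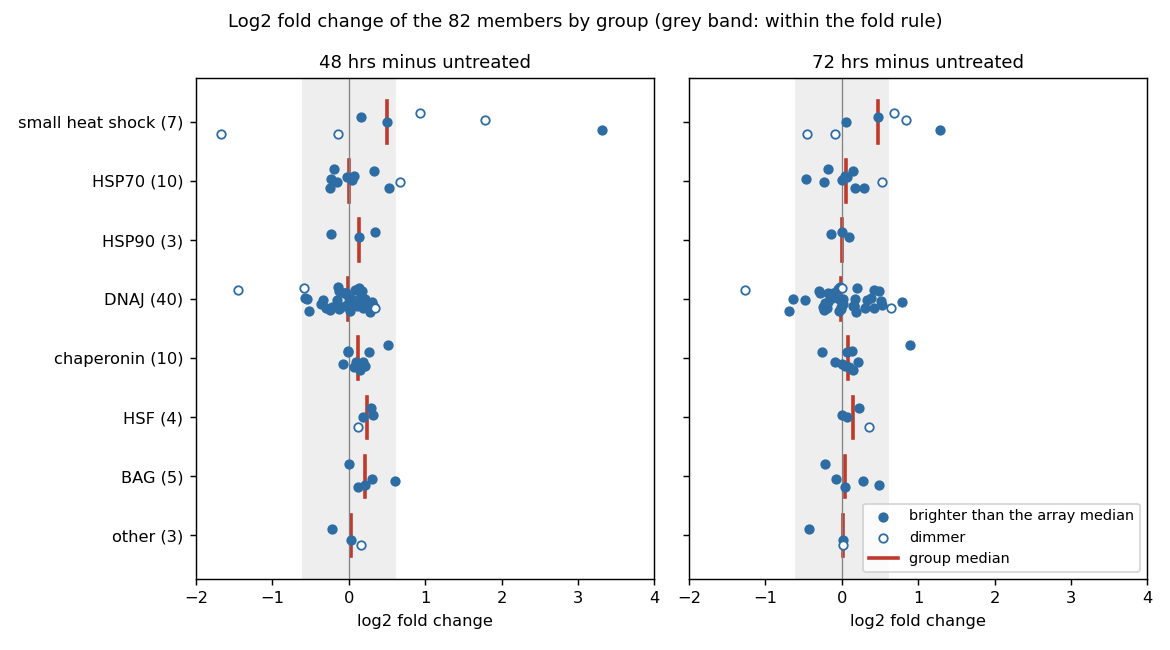
Log2 fold change of the 82 members, by group, at 48 hrs (left) and 72 hrs (right) against untreated chicks, with filled points for members brighter than the array median, open points for dimmer ones and a red line for the group median. HSPB9 is the point at 3.31 on the left and 1.29 on the right, and most others lie inside the grey band from -0.6 to 0.6.

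Among the small heat shock proteins, HSPB9 and HSPB1 were above untreated chicks at 48 hrs and 4 of 7 were too dim to follow. The group's median log2 fold change was 0.50 at 48 hrs and 0.47 at 72 hrs, against 0.01 over all genes at each time, but with intensities under 32 set to 32 the medians were 0.00 and 0.05. At 72 hrs the median was 0.28 without either of the 72 hr arrays in turn and 0.27 without the Z-linked HSPB3. HSPB1, the counterpart of mammalian HSP27, which also binds actin filaments, had a log2 intensity of 5.88 and 5.51 at 0 hr, 6.05 and 6.35 at 48 hrs, 5.67 and 5.84 at 72 hrs. The 48 hr arrays were the highest and the 72 hr arrays lay inside the untreated range. Its log2 fold change at 48 hrs was 0.50 ± 0.31 (SE).

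The dim small heat shock genes are known mainly from muscle and nerve. HSPB3, on the Z chromosome, had a log2 intensity of 2.13 and 2.55 at 0 hr, 3.20 and 3.33 at 48 hrs, 2.99 and 3.05 at 72 hrs. HSPB8, the partner of BAG3 in removing damaged filaments, had 4.19 and 1.39 at 0 hr, 4.99 and 4.16 at 48 hrs, 5.10 and 2.17 at 72 hrs. HSPB3 was separated from the untreated arrays at both times but at intensities under 32 throughout, and the untreated arrays of HSPB8 spanned more than its 48 hr difference of 1.78 ± 1.14 (SE). HSPB7, a gene of heart and skeletal muscle, had 1.96 and 1.91 at 0 hr, 0.51 and 0.00 at 48 hrs, 0.06 and 2.90 at 72 hrs, and HSPB2 stayed between 0.00 and 2.21 on all arrays. HSPB7L, with log2 intensities from 4.92 to 6.07, overlapped between untreated and treated arrays at both times.

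Muscle genes differed between pools as well. The 11 measured muscle genes summed to 1876 and 2792 in intensity at 0 hr, 3090 and 2799 at 48 hrs, 2797 and 3035 at 72 hrs, most of it from TNNC1, and MYLPF was at log2 0.00 on 5 of 6 arrays. At 48 hrs both arrays lay above both untreated ones for 2 of the 6 bright muscle genes (33.3%, against 15% of all bright genes) and below for 1 (16.7%, against 13.5%). Their part in the small heat shock values was not tested. CRYAB (alpha B-crystallin), a small heat shock protein outside the symbol rule and the RefSeq neighbour of HSPB2 on chromosome 24, had 7.06 and 7.04 at 0 hr, 8.14 and 7.63 at 48 hrs, 7.59 and 6.25 at 72 hrs. It too was highest at 48 hrs, with a log2 fold change of 0.84 ± 0.43 (SE), and on the replicate 2 array at 72 hrs it lay under the untreated ones.

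In the HSP70 group, HSPA2 was above untreated chicks at 48 hrs, while HSPA8 and HSPA9 kept nearly the same level. HSPA2, with the synonym HSP70 in RefSeq, had a log2 intensity of 11.50 and 12.02 at 0 hr, 12.31 and 12.26 at 48 hrs, 12.11 and 12.01 at 72 hrs. Both 48 hr arrays were above the others, and the lower of the untreated arrays was replicate 1. The log2 fold change at 48 hrs was 0.53 ± 0.20 (SE, adjusted p = 1) and 0.26 without untreated replicate 1. At 72 hrs it was 0.30 ± 0.20 (SE). HSPA8, the constitutive HSP70 of the cytosol, stayed between 13.03 and 13.17 on all 6 arrays, and HSPA9, the HSP70 of mitochondria, between 11.70 and 11.85.

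HSPH1, an HSP110 protein that releases clients from HSP70, was also highest at 48 hrs. Its log2 intensity was 8.38 and 8.90 at 0 hr, 9.01 and 8.93 at 48 hrs, 8.97 and 8.61 at 72 hrs. The 48 hr arrays lay just above the higher untreated array and the 72 hr arrays overlapped with the untreated ones, and the log2 fold change at 48 hrs was 0.33 ± 0.25 (SE). It was 0.07 without untreated replicate 1, and the dim other probe set of HSPH1 gave -0.29. Its relatives HSPA4 and HSPA4L differed by -0.15 and -0.03 at 48 hrs, and at the later time by -0.24 and 0.07, with overlapping arrays. HSPA12A (-0.24 at 48 hrs), a distant HSP70, HSPA13 (0.67, dim) and HSPA14 (-0.19) made up the rest of the group. The 2 probe sets of HSPA13 gave 0.67 and -0.95 at 48 hrs, so its difference depended on the probe set. The group's median was 0.00 at 48 hrs and 0.06 at 72 hrs.

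HSPA5, the ER member of the HSP70 family known as BiP, was lowest at 48 hrs on average. Its log2 intensity was 12.56 and 12.84 at 0 hr, 12.65 and 12.25 at 48 hrs, 12.75 and 13.00 at 72 hrs. The 72 hr arrays lay above the 48 hr arrays, by 0.43 ± 0.19 (SE, adjusted p = 1), and the untreated arrays overlapped with both. At 48 hrs the log2 fold change was -0.25 and at 72 hrs 0.18.

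On their brightest probe sets the 3 HSP90 genes differed little from untreated chicks. HSP90AA1, the inducible cytosolic form in mammals, had a log2 intensity of 12.72 and 12.78 at 0 hr, 12.87 and 12.90 at 48 hrs, 12.82 and 12.88 at 72 hrs. All 4 treated arrays lay above both untreated ones, but the log2 fold changes were 0.13 ± 0.13 at 48 hrs and 0.10 ± 0.13 at 72 hrs (SE). The other probe set of HSP90AA1, also bright, gave 0.29 at 48 hrs and 0.50 at 72 hrs, so the size depended on the probe set. HSP90AB1, the constitutive form, had 7.33 and 7.43 at 0 hr, 7.54 and 7.90 at 48 hrs, 7.40 and 7.38 at 72 hrs, highest at 48 hrs with a log2 fold change of 0.34 ± 0.24 (SE). HSP90B1, the ER form GRP94, had 12.08 and 12.26 at 0 hr, 12.02 and 11.86 at 48 hrs, 12.27 and 11.79 at 72 hrs. Its 48 hr arrays lay below both untreated arrays, with a log2 fold change of -0.23 ± 0.20 (SE).

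**Figure D3:**
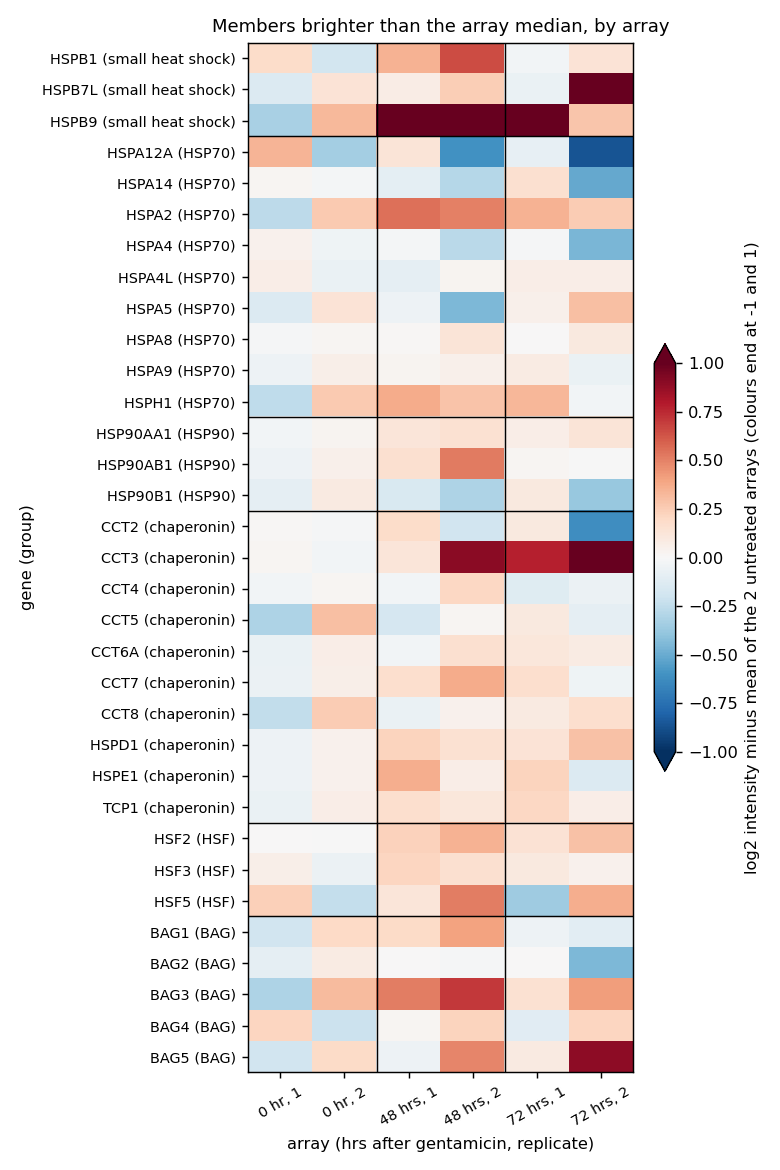
Log2 intensity minus the mean of the 2 untreated arrays for the 33 members brighter than the array median outside the DNAJ group, HSPB11 and HSPBAP1 left out, with genes in rows by group and the 6 arrays in columns (colours end at -1 and 1). HSPB9 and CCT3 hold strong reds on 3 arrays each, HSPB7L and BAG5 on the replicate 2 array at 72 hrs alone, and HSPA8, HSPA9 and HSP90AA1 are nearly white on every array.

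Among the chaperonins only CCT3 was past the fold rule, at 72 hrs. Both 48 hr arrays lay above both untreated ones for 5 of the 10 (50%, against 15% of all bright genes) and below for 0 (against 13.5%). At 72 hrs 4 lay above (40%, against 14.4%) and 1 below (10%, against 12.9%). The cytosolic ring TRiC is built from 8 kinds of subunit, all 8 of which were measured (TCP1, CCT2, CCT3, CCT4, CCT5, CCT6A, CCT7 and CCT8). CCT3 had a log2 intensity of 6.38 and 6.33 at 0 hr, 6.48 and 7.26 at 48 hrs, 7.14 and 7.38 at 72 hrs. All treated arrays lay above the untreated ones, clearly so on 3 of 4. The log2 fold change was 0.51 ± 0.32 at 48 hrs (SE), 0.12 without the replicate 2 array at 48 hrs, and 0.90 ± 0.32 at 72 hrs (SE, adjusted p = 0.996). On their brightest probe sets the other 7 subunits differed by -0.07 (CCT5) to 0.27 (CCT7) at 48 hrs and by -0.26 (CCT2) to 0.15 (TCP1) at 72 hrs. Further bright probe sets at 48 hrs reached -0.46 for CCT8 and -0.13 for CCT4, and 0.26 for CCT6A. CCT7 was above untreated chicks on both 48 hr arrays, CCT6A on both 72 hr arrays and TCP1 at both times, while CCT4 was below on both 72 hr arrays. For CCT6A this held on its brightest probe set, and the others gave 0.00 and -0.37 at 72 hrs with overlapping arrays. The separation of CCT6A and TCP1 at 72 hrs was thin. On replicate 2 each exceeded untreated replicate 2 by 0.008 on the log2 scale.

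HSPD1 and HSPE1 (HSP60 and HSP10), the cage and lid of the mitochondrial chaperonin, are neighbours on chromosome 7. HSPD1 had a log2 intensity of 10.73 and 10.82 at 0 hr, 11.00 and 10.93 at 48 hrs, 10.92 and 11.07 at 72 hrs. HSPE1 had 11.36 and 11.45 at 0 hr, 11.77 and 11.48 at 48 hrs, 11.63 and 11.27 at 72 hrs. Both were separated from untreated chicks at 48 hrs, and HSPD1 also at 72 hrs, with log2 fold changes of 0.19 ± 0.16 for HSPD1 and 0.22 ± 0.19 for HSPE1 at 48 hrs (SE). The median of the 10 chaperonins was 0.12 at 48 hrs and 0.08 at 72 hrs. With equal array medians it was -0.02 at 72 hrs.

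Among the regulators, HSF2 and HSF3 were slightly above untreated chicks, and HSF1 was not among the members. HSF3 is a heat-activated factor of birds. It had a log2 intensity of 9.87 and 9.76 at 0 hr, 10.03 and 9.98 at 48 hrs, 9.91 and 9.86 at 72 hrs. HSF2, which pairs with HSF1 in mammals, had 8.93 and 8.93 at 0 hr, 9.16 and 9.28 at 48 hrs, 9.07 and 9.22 at 72 hrs. HSF2 was separated at both times and HSF3 at 48 hrs, with log2 fold changes at 48 hrs of 0.29 ± 0.19 and 0.19 ± 0.17 (SE). Their dim other probe sets did not show this, with -0.02 for HSF2 and -0.09 and -1.06 for HSF3. HSF4, the lens factor, differed by 0.12 at 48 hrs and 0.35 at 72 hrs at dim intensities, and HSF5 by 0.32 and 0.00 with overlapping arrays. These are levels of mRNA, while the activity of the factors is set on the protein.

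BAG3 carries clients of HSP70 to autophagy together with small heat shock proteins. Its log2 intensity was 11.06 and 11.69 at 0 hr, 11.88 and 12.08 at 48 hrs, 11.52 and 11.79 at 72 hrs. The 48 hr arrays were the highest, and as for HSPA2 the untreated replicate 1 array was the lowest. The log2 fold change at 48 hrs was 0.61 ± 0.23 (SE, adjusted p = 1), and 0.29 without untreated replicate 1. On its dimmer probe set it was 0.27. BAG1, BAG2, BAG4 and BAG5 differed by 0.00 (BAG2) to 0.30 (BAG1) at 48 hrs and by -0.22 (BAG2) to 0.49 (BAG5) at 72 hrs, with arrays that overlapped with the untreated ones.

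The 40 DNAJ genes had medians of -0.01 at both times, and the gene farthest from untreated chicks, DNAJB2 (-1.46 ± 1.10 at 48 hrs, SE), was dim. DNAJB8, which keeps aggregating proteins apart and is known from testis in mammals, had a log2 intensity of 4.91 and 4.71 at 0 hr, 5.02 and 5.20 at 48 hrs, 5.46 and 5.72 at 72 hrs. Each treated pair lay above the pair before it, and at 72 hrs the log2 fold change was 0.78 ± 0.34 (SE, adjusted p = 0.996). The untreated intensities of DNAJB8, 29.96 and 26.19, were under 32, so the size of this difference is not resolved. DNAJB5, which is on the Z chromosome, had 5.76 and 5.38 at 0 hr, 5.04 and 5.0 at 48 hrs, 4.77 and 5.10 at 72 hrs. Its brightest probe set was below untreated chicks at both times (-0.55 and -0.63), while its 2 dimmer probe sets were above at 48 hrs (0.84 and 1.57), so no direction can be given for the gene.

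The other Z-linked DNAJ genes were DNAJA1, DNAJC21 and DNAJC25. At 72 hrs, where W transcripts were near 0, the median log2 fold change of 434 bright Z genes was 0.28 and both arrays lay above both untreated ones for 192 of them (44.2%, against 14.4% of all bright genes). At 48 hrs their median was 0.19 in replicate 1 and -0.09 in replicate 2. Whether the 48 hr pools differed in their share of hens was not tested. DNAJA1, the cytosolic type A partner of HSP70, had a log2 intensity of 11.84 and 11.97 at 0 hr, 11.99 and 12.03 at 48 hrs, 12.05 and 12.04 at 72 hrs, and stood above untreated chicks by 0.10 at 48 hrs and 0.14 at 72 hrs. Its dimmer probe set gave 0.41 at 72 hrs, so whether DNAJA1 lay under or over the Z median of that time depended on the probe set. DNAJC21, a ribosome maturation factor, differed by -0.04 and DNAJC25 by -0.22 at 72 hrs, with overlapping arrays.

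Many genes of the ER had lower values than untreated chicks at 48 hrs, by small amounts. A list of 24 measured ER chaperones and genes of the unfolded protein response, all outside the symbol rule, had a median log2 fold change of -0.11 at 48 hrs and -0.09 at 72 hrs. Both 48 hr arrays lay below both untreated ones for 10 of its 23 bright genes (43.5%), against 13.5% of all bright genes. They lay above them for 0 (against 15%). With quantile normalization the count below was 7 (30.4%, against 13.5%). The 10, named after their values were seen, were the disulfide isomerases PDIA3, PDIA4, PDIA5 and PDIA6, the thioredoxin-like ERP29 and ERP44, calnexin (CANX), SEL1L, SDF2L1 and CRELD2. At 72 hrs 2 of 23 lay below (8.70%, against 12.9% of all bright genes) and 1 above (4.35%, against 14.4%). At 48 hrs 0 of the 24 passed limma and 0 had an unadjusted p under 0.05.

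CRELD2, a secreted product of ER stress, was the only gene of the ER list past the fold rule at 48 hrs. Its log2 intensity was 8.38 and 8.58 at 48 hrs, against 8.77 and 9.63 in untreated chicks. The treated arrays lay below the untreated ones, which themselves differed by more than the treated arrays did, and the log2 fold change was -0.72 ± 0.32 (SE).

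Several members that work in the ER also had lower values at 48 hrs. Of the 8 assigned to that location, 7 were bright. Both 48 hr arrays lay below both untreated ones for HSP90B1 and the BiP co-chaperones DNAJB11, DNAJC3 and DNAJC10 (57.1%, against 13.5% of all bright genes). They lay above them for none of the 7 (against 15%). The 8 left out some J proteins of the ER membrane, such as DNAJB12 and DNAJB14. On their brightest probe sets DNAJB12 was above untreated chicks on both 48 hr arrays and DNAJB14 overlapped. DNAJB11 had a log2 intensity of 6.80 and 6.62 at 48 hrs, against 7.14 and 7.31 in untreated chicks, a log2 fold change of -0.52 ± 0.43 (SE). DNAJC3, the inhibitor of eIF2 alpha kinases, had 11.55 and 11.61 at 48 hrs and 11.39 and 11.41 at 72 hrs, against 11.77 and 11.64 in untreated chicks. It was below untreated chicks at both times, by -0.13 at 48 hrs and -0.30 ± 0.15 at 72 hrs (SE). A second probe set of DNAJC3 gave -0.14 at 48 hrs, while the third and dimmest gave 1.74 with overlapping arrays, so the 48 hr sign depended on the probe set. This grouping by location was made after the values were seen, and it has no test. SC markers were lower in part at 48 hrs as well, with both arrays below both untreated ones for 6 of 13 (46.2%, against 13.5% of all bright genes), summed intensities of 34240 and 37080 at 48 hrs against 36640 and 37210 in untreated chicks and none at 0, and their part in the ER values was not tested.

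**Figure D4:**
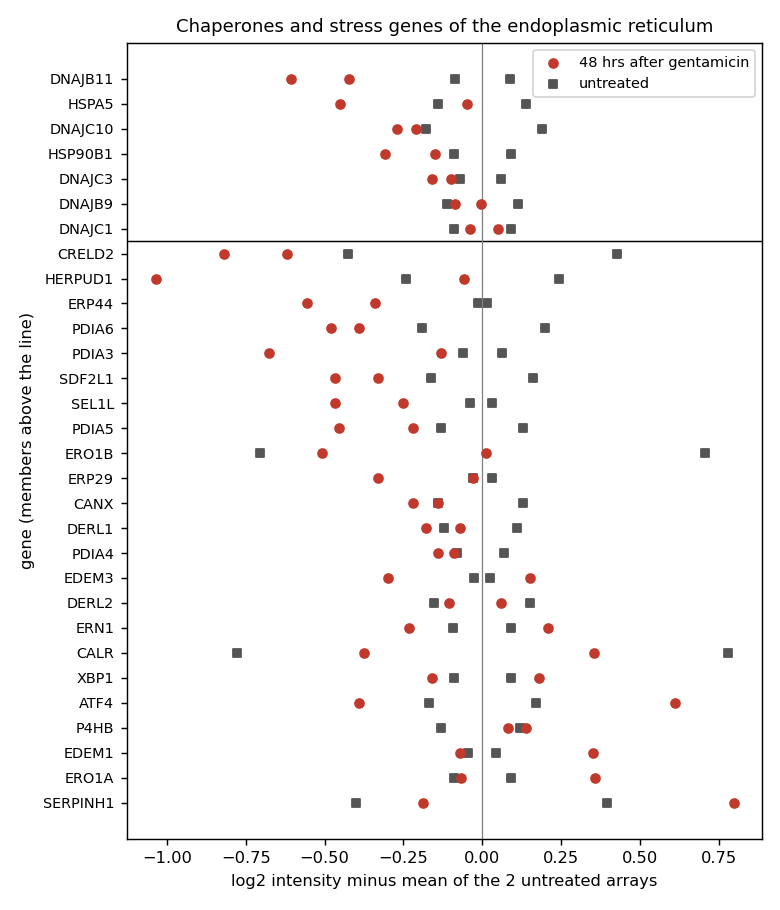
Log2 intensity minus the mean of the untreated arrays for the 7 bright members assigned to the ER (above the line) and the 23 bright genes of the ER list (below it). Circles are the 2 arrays at 48 hrs and squares the 2 untreated arrays. The circles lie left of both squares for 4 of the 7 members and 10 of the 23 listed genes, and right of both for none.

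The 8 members that work in mitochondria, all bright, differed from untreated chicks by small amounts. Both 48 hr arrays lay above both untreated ones for HSPD1, HSPE1, DNAJC15 and DNAJC19 (50%, against 15% of all bright genes) and below for DNAJC11 (12.5%, against 13.5%). The dimmer probe sets of HSPD1 and DNAJC19 gave -0.03 and -0.46 at 48 hrs. The median log2 fold change was 0.16 at 48 hrs and 0.02 at 72 hrs. DNAJC15, a partner of the protein import motor, had a log2 intensity of 6.79 and 6.99 at 0 hr, 7.07 and 7.14 at 48 hrs, 6.78 and 6.55 at 72 hrs. It was highest at 48 hrs and lowest at 72 hrs. None of these members passed the fold rule at either time. This grouping too was made after the values were seen.

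Few helpers of HSP70 and HSP90 outside the symbol rule were past the fold rule. Of all genes it took in 6.82% as higher and 5.29% as lower at 48 hrs, and 9.28% and 6.26% at 72 hrs. Of 16 HSP90 co-chaperones, a list that holds the mitochondrial HSP90 TRAP1, 0 were past it at 48 hrs. At 72 hrs 1, the dim STIP1, was lower (6.25%). Both 48 hr arrays lay above both untreated ones for 3 of the 13 bright genes of this list (23.1%, against 15% of all bright genes). They lay below for 0 (against 13.5%). For TTC4 and TRAP1 they also lay above both 72 hr arrays (15.4%, against 5.12%). No gene was past the fold rule at either time among 8 HSP70 co-chaperones, 7 prefoldin genes and 8 mitochondrial proteases and their kin. Prefoldin delivers actin and tubulin to TRiC. At the shares of all genes, lists this short can hold 0. The list of 10 other heat-induced genes held 2 that were higher (ATF3 and CRYAB, 20%) and 1 that was lower (the dim HMOX1, 10%) at 48 hrs. ATF3, a stress-induced transcription factor, had a log2 intensity of 3.50 and 3.20 at 0 hr, 7.05 and 5.28 at 48 hrs, 5.29 and 4.43 at 72 hrs. It was separated from untreated chicks at both times. As for HSPB9, replicate 1 lay above replicate 2 at both treated times, and 48 hrs lay above 72 hrs on average. The log2 fold change of ATF3 at 48 hrs was 2.81 ± 0.61 (SE, adjusted p = 1). Unlike those of HSPB9, its untreated values and that of replicate 2 at 72 hrs were under an intensity of 32, so the size of this difference is not resolved. None of the 6 lists had a gene that passed limma in any of the 3 comparisons.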

How the data were processed

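The intensity values were deposited by the authors on a linear scale. Their processing notes list MAS5 (version not given) while dChip is the program described in the methods, so which of them made the values is not settled. Values were taken as log2 with no further normalization, and array medians were 26.47 to 30.1 in intensity. Replicate numbers follow the titles. The source names instead call both untreated arrays and both 48 hr arrays replicate 2. That the arrays of these pairs are separate replicates thus rests on the titles. Of 38535 probe sets 153 control probe sets were left out. Gene symbols came from the platform annotation, under which 27178 probe sets have 1 symbol, 177 several and 11180 none, and all 82 members matched RefSeq (GRCg7b) by Entrez identifier. A linear model of all 6 arrays was fitted with limma 3.58.1 (trend, 3 residual and 4.75 prior degrees of freedom) in R 4.3.3, tested on simulated data, with Benjamini-Hochberg adjustment over 38382 probe sets at 0.05. A gene was called bright where its mean log2 intensity exceeded 4.76, the median of all probe sets. Tables and figures were made with Python 3.11.15, pandas 2.3.3, numpy 2.4.6 and matplotlib 3.10.9.

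All genes of the small heat shock, HSP70, HSP90, chaperonin, HSF and BAG groups were named, DNAJ genes that lie on Z or passed the fold rule as bright genes with separated arrays, and up to 3 genes of a list by that choice. Other DNAJ and list genes were picked for naming once their values were known. The members and lists were chosen with earlier results of these data known. Alternatives were a floor of 32, quantile normalization, equal array medians, bright probe sets only, the mean of a gene's probe sets, the replicate number as a block, no variance trend, no Z genes and each array left out. The counts of separated arrays under other scalings, the count without the 72 hr replicate 2 array and the dimmer HSPB9 probe set were added after the data were seen. Promoter and protein sequences were not analysed here.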

Additional observations from a re-analysis of the deposited data

How the results depend on the processing

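No member passed limma under any alternative. Counts by the fold rule, given as higher and then lower, were 5 and 2 at 48 hrs, 6 and 3 at 72 hrs and 1 and 2 at 72 against 48 hrs. With a floor of 32 they were 2 and 0, 2 and 1, and 0 and 1. With bright probe sets only, fewer genes were counted: 2 and 0 at 48 hrs, 3 higher at 72 hrs, and 0 and 1 at 72 against 48 hrs. With equal array medians 4 were lower at 48 hrs, and with the mean of a gene's probe sets 4 were lower at 72 against 48 hrs. With 1 array left out in turn, the ranges were 4 to 8 and 2 to 6 at 48 hrs, 6 to 12 and 3 to 6 at 72 hrs, and 1 to 10 and 2 to 7 at 72 against 48 hrs. Without Z genes they were 4 and 2, 5 and 2, and 1 and 2. With equal array medians 5 members were separated above and 14 below untreated chicks at 72 hrs, and 11 lay above all other arrays at 48 hrs. Without the replicate 2 array at 72 hrs these counts were 26, 14 and 11.

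Group medians moved as follows. With a floor of 32 the small heat shock median was 0.00 at 48 hrs and 0.0521 at 72 hrs and the DNAJ median 0.00 at 48 hrs. With the mean of a gene's probe sets the medians at 48 hrs were -0.13 for HSP70, 0.21 for HSP90 and 0.0223 for DNAJ. The HSP90 median at 48 hrs was 0.16 with quantile normalization and 0.11 with equal array medians, under which the DNAJ median was -0.0414 at 48 hrs and -0.11 at 72 hrs. With 1 array left out it was 0.10 to 0.16 for HSP90, -0.0581 to -0.0116 for DNAJ and 0.0718 to 0.24 for chaperonins at 48 hrs and -0.11 to 0.0745 for DNAJ at 72 hrs. Of 94 differences of named genes at 48 or 72 hrs, 49 turned sign under some alternative, 43 of them with 1 array left out, and 46 of the 49 were within the fold rule. BAG3 and HSPH1 at 72 hrs, for example, were -0.03 and -0.10 without untreated replicate 1, and HSPB1 was -0.13 without untreated replicate 2. The 3 past the fold rule were DNAJB5 at 72 hrs (0.18) and HSPA13 at 48 hrs (-0.14) with the mean of probe sets, and HSPB8 at 72 hrs, which ranged from -0.62 to 2.32 with 1 array left out (-0.56 without untreated replicate 2). The cause was not tested.

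Same-numbered arrays deviated together (r = 0.44, 0.29 and 0.57 over the 9320 probe sets of highest mean intensity). These are fewer than the probe sets called bright above, and the first principal component rests on them too. In every group the replicate 2 array was lower on the first principal component and had the larger 3′ to 5′ gaps for GAPDH and EF1A. The GAPDH gaps of replicates 2 and 1 were 3.31 and 2.47 at 0 hr, 4.91 and 3.01 at 48 hrs, 4.56 and 2.08 at 72 hrs. For ACTB the 48 hr gap was larger on replicate 1 (3.97 against 3.93). What else the replicate number stands for is not given. With the replicate block 0 members were called, against 0, 50 and 28 of all probe sets at 48 hrs, 72 hrs and 72 against 48 hrs, where the fit without the block called 0, 34 and 19. With 2 arrays a group and 51.7% to 54.4% of values under 32, differences of dim genes could not be resolved.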
